A study of Mus musculus with 4 samples.

Results

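Mitochondrial ribosomal proteins are encoded in the nucleus, made in the cytosol and imported into mitochondria, where they join the mitochondrial rRNAs to form a large and a small subunit. This ribosome translates the few mRNAs of the mitochondrial genome, which encode subunits of the respiratory chain and of ATP synthase. Some of its proteins have bacterial homologues, and others are found only in mitochondrial ribosomes. The genes described here are those whose symbol begins with Mrpl (large subunit) or Mrps (small subunit) and then a digit in the platform annotation. They had 127 of the 22690 probe sets on the array and came to 74 of the 12393 genes, 47 named for the large and 27 for the small subunit. The rule used names only, with no measured value.

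RNA was measured on 4 Affymetrix arrays of R1 cells, an established line of mouse embryonic stem (ES) cells. For 2 arrays the cells had been infected with lentivirus carrying an shRNA to Brg1 (gene Smarca4), an ATPase that drives SWI/SNF remodelling of chromatin. For the other 2 the lentivirus carried a control shRNA to GLUT4, a glucose transporter (gene Slc2a4). Both groups were infected and both were harvested 67 h later. The labels call the 2 samples of each group replicates and do not say that they came from separate cultures, so p-values measure only the spread between these samples, which may be technical. The comparison asks which of these genes differ when Brg1 is reduced, and whether the large and small subunits differ in this.

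Values are signals in linear units, 1 per probe set and array, and each array had been scaled to the same trimmed mean of about 200.1 before deposit. Smarca4 had signals of 652.1 and 621.5 in the knockdown and 1186.6 and 1213.6 in the control, which makes the log2 difference -0.89 ± 0.079 (SE), with an adjusted p of 0.000246 in limma, so its RNA was reduced in part. Slc2a4 lay below the filter on dim genes, at 20.9 and 23.9 against 11.7 and 19.2. All 8 ES cell markers passed the filter. Of these, 2 rose and 0 fell in limma, where 9.36% of all genes tested rose and 5.06% fell. Of 10 fibroblast markers, which feeder cells would carry, 1 passed the filter (Thy1, at 20.8 and 29.0 against 36.7 and 48.3). The summed signal of the 10 fibroblast markers was 118.7 and 139.2 in the knockdown and 117.7 and 131.6 in the control. That of the ES cell markers was 17632.2 and 17242.9 against 16501.8 and 16677.7. In such bulk samples, less RNA per cell and fewer cells of a type cannot be told apart.

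All 74 genes passed the filter on dim genes (a mean signal of at least 24.6), and none was filtered out. Of the 74, 0 rose and 6 fell in the knockdown with limma at an adjusted p under 0.05, which is 8.11% of them. Over all 7819 genes tested, 14.4% passed in either direction, 9.36% higher and 5.06% lower. Among the 4475 tested genes with a mean signal in the members' own range of 131.4 to 1658.9, 10.9% rose and 6.17% fell. The members' share of falls was thus near that background, while the 0 rises lay below it. The 6 were Mrps36, Mrps9 and Mrps18c, named for the small subunit, and Mrpl55, Mrpl52 and Mrpl12, named for the large one. Their sizes were small: the log2 differences ran from -0.28 to -0.63, with 1.21-fold to 1.55-fold lower values on the scale with the pseudocount.

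The split depended on how the arrays were put on a common scale. With each array centred on its median, 0 members rose and 10 fell, beside 625 rises and 595 falls over all genes in place of 732 and 396. Scaled to the hybridisation spike-ins, 3 rose (Mrpl28, Mrpl41 and Mrps2) and 0 fell, beside 1449 rises and 22 falls over all genes. The spike-in scaling moved the median log2 difference of all genes tested from 0.036 to 0.35. The spike-ins had mean log2 signals of 9.51 and 9.24 in the knockdown and 9.73 and 9.64 in the control. The 2 knockdown arrays thus also differed from each other in this value, and the cause was not tested. On the deposited scale the members' median minus that of all genes tested was -0.065. Median centring and the spike-in scaling add 1 constant per array, so they leave this value as it is by construction. Directions below are those of the deposited scale.

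**Figure D1:**
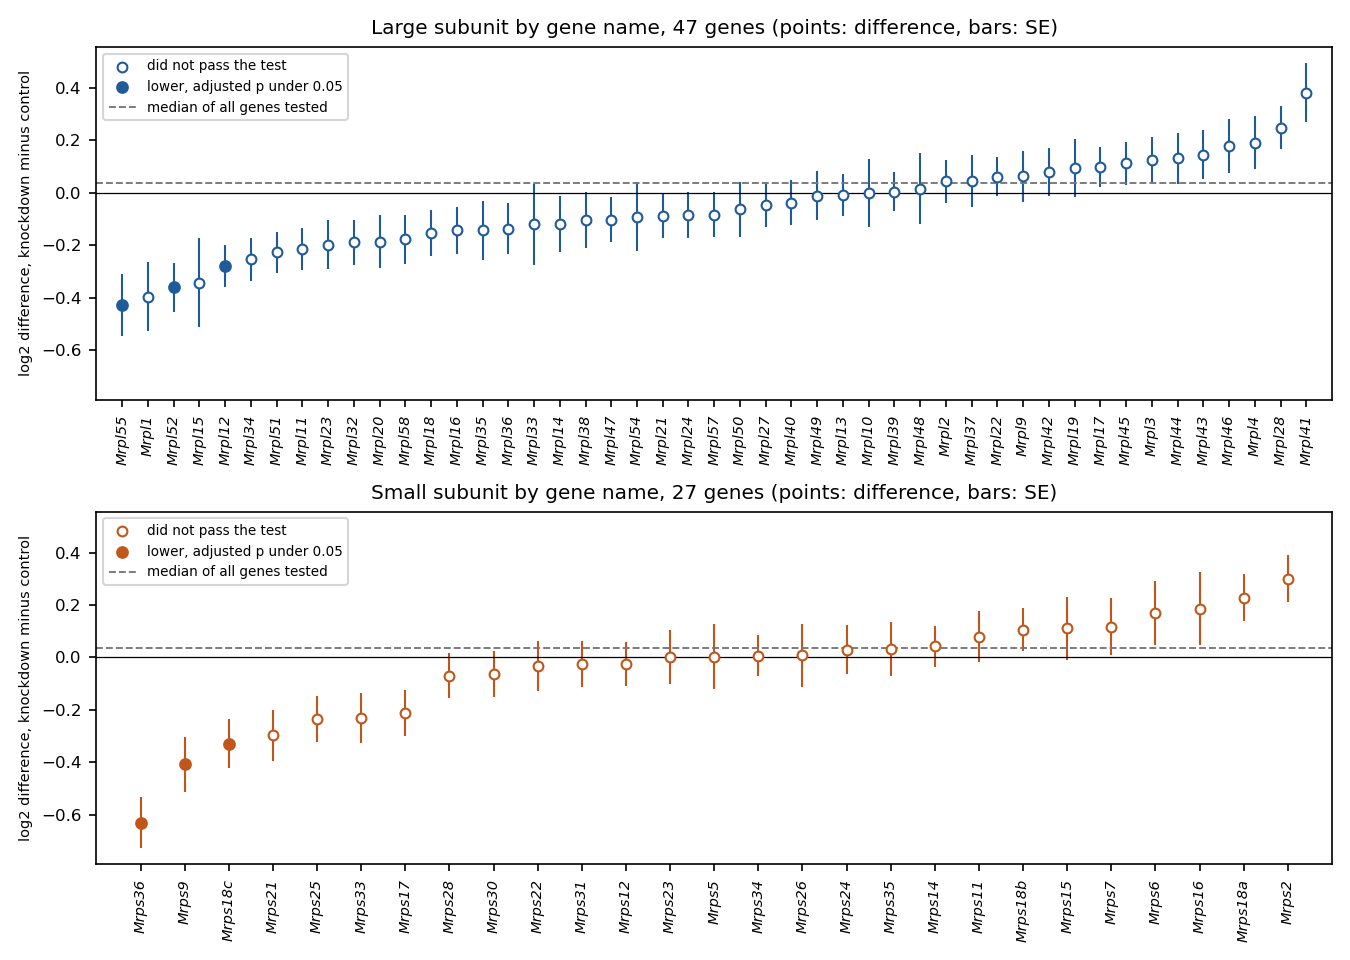
Log2 difference between knockdown and control (log2 of signal plus 20) for each of the 74 genes, in order within the large (upper) and small subunit (lower) by name. Points are differences, bars are SE, filled points passed the test and the dashed line is the median of all genes tested, 0.036; the 6 filled points are all below 0 and run from -0.28 to -0.63.

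Mrps36 had the lowest difference of the 74. Its protein is named as one of the small subunit, but it is now known as a component of the 2-oxoglutarate dehydrogenase complex of the citric acid cycle, and structures of the mitochondrial ribosome do not hold it. Its signal was 343.7 and 338.4 in the control and 216.3 and 210.2 in the knockdown. The gap between the groups was far wider than the spread within either. The log2 difference was -0.63 ± 0.098 (SE; limma, adjusted p = 0.00363). It was the 1 member that fell with each of the 4 arrays left out in turn (adjusted p from 0.00549 to 0.0117). Each such fit leaves 1 array in a group, which is assumed to vary like the arrays of the other group, so it shows whether a value rests on 1 array and gives little further support. It lost its call with the spike-in scaling (log2 difference -0.32, adjusted p = 0.282). The genes for the 3 enzymes of that complex, chosen after their values were seen, did not pass: Ogdh had a log2 difference of 0.26 (adjusted p = 0.103), Dlst of -0.034 (0.841) and Dld of -0.19 (0.244).

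Among the proteins that are part of the ribosome, Mrps9 had the lowest difference of the small subunit. It is the homologue of a bacterial protein of the small subunit. Signals were 223.3 and 217.8 in the knockdown and 281.6 and 317.5 in the control. The groups did not overlap, with the knockdown lower, as for 25.9% of all genes tested. The log2 difference was -0.41 ± 0.11 (SE; limma, adjusted p = 0.0327). Mrps18c, 1 of 3 mammalian homologues of a single bacterial protein, had 415.1 and 467.2 against 570.1 and 546.4. Both knockdown arrays again lay below both control arrays, and the difference was -0.33 ± 0.095 (adjusted p = 0.0467). Its paralogs did not pass: Mrps18a, which sits in the large subunit despite its name, had 541.8 and 585.7 against 485.3 and 470.5 (log2 difference 0.23, adjusted p = 0.115), and Mrps18b had 1123.8 and 1229.3 against 1133 and 1050.2 (0.11, adjusted p = 0.419). The 3 paralogs therefore lay on both sides of 0.

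In the large subunit, Mrpl55 had signals of 234.4 and 289.9 in the knockdown and 370.6 and 345 in the control. It belongs to a bacterial protein family. The groups did not overlap, though the knockdown arrays differed from each other more than the control arrays did, and the log2 difference was -0.43 ± 0.12 (SE; limma, adjusted p = 0.040). Mrpl52, a protein found only in mitochondrial ribosomes, had 682.1 and 631.7 against 904.9 and 794.8. All its knockdown values were below its control values, and the difference was -0.36 ± 0.093 (adjusted p = 0.0324). Mrpl12, the homologue of the bacterial stalk protein that recruits translation factors, also binds the mitochondrial RNA polymerase Polrmt. Its signals were 967.2 and 979 against 1136.1 and 1237.8, with no overlap and a log2 difference of -0.28 ± 0.08 (adjusted p = 0.0446). Groups apart in this direction were also found for 25.9% of all genes tested.

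Promoter sequences are shown for the 6 genes that fell, the members past the test. The sequences are from RefSeq (build GRCm38.p6), 5′ to 3′ on the strand of the gene, and cover the 150 bases before the annotated start. Capitals mark the letters searched for, on either strand. Factors of the ETS family such as GABP were searched by CCGGAAG, while the factor NRF1 was searched by GCATGCG and the factor YY1 was searched by ATGGCGG. Sites of Sp1 and Klf factors were searched by GGGCGG, and the NF-Y box was searched by CCAAT. The E-box was searched by CACGTG, and finally the TATA box was searched by TATAAA. The YY1 and Sp1 letters can overlap each other.
Mrps36 (chr13:100744660-100744809, minus strand): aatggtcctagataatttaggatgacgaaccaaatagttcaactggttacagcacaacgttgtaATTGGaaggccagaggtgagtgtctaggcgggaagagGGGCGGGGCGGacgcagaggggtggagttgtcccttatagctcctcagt
Mrps9 (chr1:42851083-42851232, plus strand): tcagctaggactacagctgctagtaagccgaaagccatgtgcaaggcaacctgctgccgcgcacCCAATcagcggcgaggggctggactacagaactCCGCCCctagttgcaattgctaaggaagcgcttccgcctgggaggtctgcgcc
Mrps18c (chr5:100798609-100798758, plus strand): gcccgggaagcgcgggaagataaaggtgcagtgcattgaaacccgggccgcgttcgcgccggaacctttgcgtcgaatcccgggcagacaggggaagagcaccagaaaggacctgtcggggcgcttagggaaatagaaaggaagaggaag
Mrpl55 (chr11:59202336-59202485, plus strand): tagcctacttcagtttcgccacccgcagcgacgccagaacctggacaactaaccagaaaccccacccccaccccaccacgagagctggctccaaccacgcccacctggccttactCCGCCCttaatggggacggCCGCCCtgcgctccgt
Mrpl52 (chr14:54426759-54426908, plus strand): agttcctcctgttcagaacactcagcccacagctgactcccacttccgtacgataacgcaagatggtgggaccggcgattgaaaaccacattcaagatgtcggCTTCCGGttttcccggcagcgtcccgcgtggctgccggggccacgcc
Mrpl12 (chr11:120484487-120484636, plus strand): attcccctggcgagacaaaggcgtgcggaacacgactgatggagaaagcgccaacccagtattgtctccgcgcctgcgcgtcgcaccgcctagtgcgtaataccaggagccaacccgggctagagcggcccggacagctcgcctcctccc
None of these motifs was in all 6 stretches. In the whole window, from 250 bases before to 50 after the start, 4 of the 6 held the Sp1 letters, 2 the ETS letters (Mrpl52 and Mrps18c), 2 the NF-Y letters (Mrps36 and Mrps9) and 1 the E-box (Mrps18c), and Mrpl12 held none of the letters.

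The calls other than that of Mrps36 depended on the array left out. The count of falls over all genes tested moved too, and was lower in all such fits but that without knockdown replicate 1. Without knockdown replicate 1, 4 members fell, 2 of them among the 6. Without knockdown replicate 2 the count was 2 (Mrpl55 and Mrps36), without control replicate 1 it was 4, of which 3 were among the 6, and without control replicate 2 it was 3. Mrps18c lost its call without each of the 4 arrays, Mrps9 and Mrpl12 without 3 of them, and Mrpl52 and Mrpl55 without 2. Each of these 5 also lost its call with no filter on dim genes (adjusted p from 0.0768 to 0.104) and without the intensity trend of the variance model (0.0617 to 0.127).

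**Figure D2:**
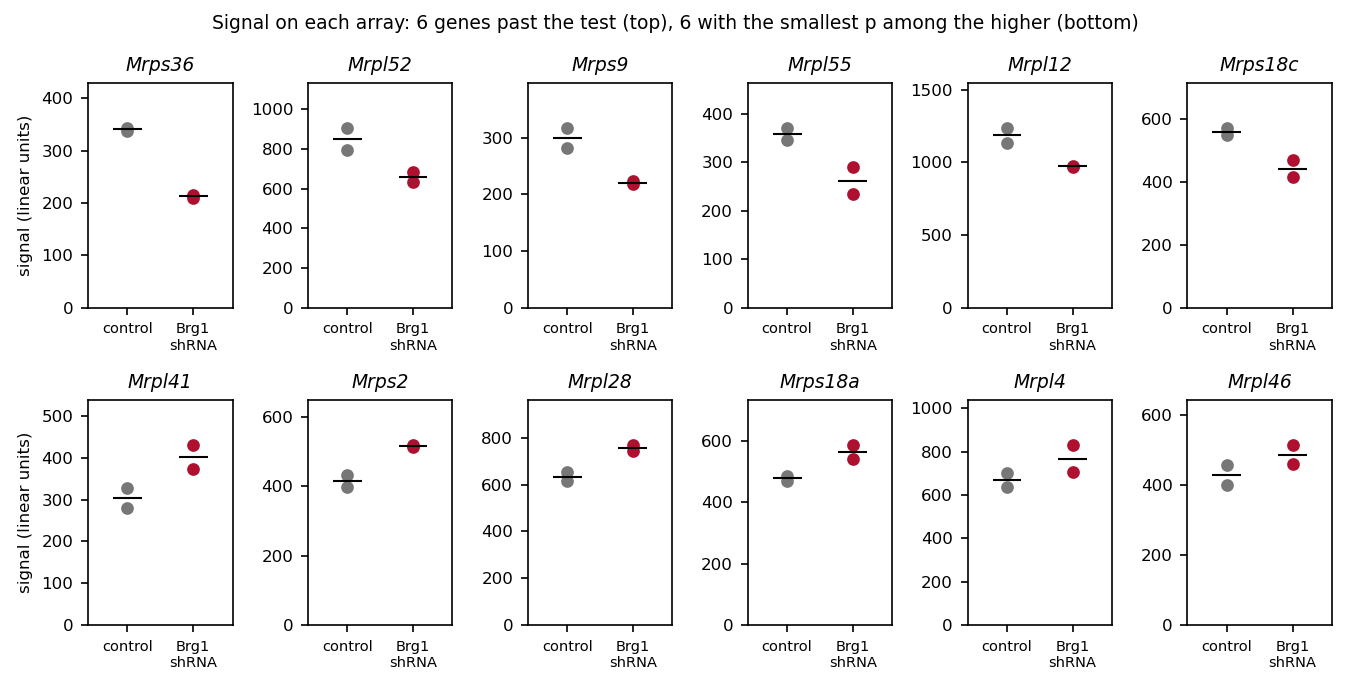
Signal in linear units on each array for the 6 genes that fell (upper row) and the 6 with the smallest p among those with a positive difference (lower row), control in grey and Brg1 shRNA in red, with the mean of 2 arrays as a bar. Each axis starts at 0 and has its own range. In the upper row both knockdown points lie below both control points in all 6 panels, but these genes were picked by a test on the same arrays. The same order held for 25.9% of all genes tested.

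No member with a positive difference passed the test. Mrpl41, a protein of the large subunit found only in mitochondrial ribosomes, came nearest. Its signals were 373.9 and 430.3 in the knockdown and 327.4 and 280.5 in the control, and the log2 difference was 0.38 ± 0.11 (SE; limma, adjusted p = 0.0505). The groups did not overlap, with the knockdown higher, as for 34.4% of all genes tested, and the adjusted p lay just past the threshold. It passed when replicate 1 of the knockdown or of the control was left out. It did not pass without replicate 2 of the knockdown (log2 difference 0.29) or of the control (0.28). Nor did it pass with the mean of its probe sets (0.13, limma, adjusted p = 0.576). That mean takes in a probe set below the filter, at 2 and 3.1 against 10.1 and 0.8 (-0.15). The 2 tested probe sets gave 0.38 and 0.15. Mrps2, the homologue of a bacterial protein of the small subunit, had 512.2 and 518.6 against 398.1 and 431.9 (0.30 ± 0.091, adjusted p = 0.0543). Mrpl28 had 745.7 and 768.4 against 615.4 and 653 (0.25, adjusted p = 0.0754), and both its groups were also apart. Its other tested probe sets differed in sign, at -0.073 and 0.35, and neither passed the test by itself. Mrpl4, whose bacterial homologue lines the exit tunnel for the growing chain, had 705.8 and 830.1 against 636.6 and 700.8 (0.19, adjusted p = 0.226). Mrpl46, at 459.6 and 513.5 against 398.5 and 457.5 (0.18, adjusted p = 0.275), had 1 knockdown value just above the higher control value and the other farther above it.

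Several further members had negative differences close to the threshold. Of those in this paragraph, Mrpl34, Mrps21 and Mrpl58 were named after their values were seen. Mrpl34 had a log2 difference of -0.25 (limma, adjusted p = 0.0633), Mrps21 of -0.297 (0.07), Mrpl1 of -0.397 (0.0726) and Mrpl51 of -0.23 (0.0826). Mrpl34, Mrps21, Mrpl1 and Mrpl51 all fell with the arrays centred on their medians. With the deposited scale none passed in the fit of all 4 arrays without a block, and Mrpl1 fell without knockdown replicate 1. Mrpl15 had a negative difference of similar size, -0.34, but its signals of 1528.4 and 1019.9 against 1406.1 and 1794.3 overlapped (adjusted p = 0.199). Mrpl58, which also releases stalled chains from the ribosome, had 508.8 and 460.5 against 566.8 and 533.4 (-0.18, adjusted p = 0.227). Mrps30, a protein of the large subunit despite its name, had 596.1 and 618.5 against 665.9 and 605.9, and its groups overlapped (-0.063, adjusted p = 0.666). The signal of a probe set depends on its probes, so levels are not compared between genes. Member means spanned 131.4 (Mrpl33) to 1658.9 (Mrpl42) in the large and 260.1 (Mrps9) to 1134.1 (Mrps18b) in the small subunit, all well above the filter.

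Most members differed little in either direction. The log2 difference exceeded 1.5-fold in 1 of 74 (1.35%), which was Mrps36, against 6.31% of all genes tested. The 95% interval of the difference, unadjusted, lay within 1.5-fold of no change for 68 of 74 members (91.9%). The same held for 70.2% of all genes tested and for 79.6% of those in the members' signal range. The SD of the members' log2 differences was 0.18, against 0.32 over all genes tested. Between the 2 knockdown arrays it was 0.15 and between the 2 control arrays 0.16, and between arrays of different groups it ran from 0.18 to 0.24. Over all genes tested these were 0.22, 0.20 and 0.32 to 0.38, so the members' spread between groups was less far above that between replicates.

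Both knockdown arrays lay below both control arrays for 26 members (35.1%), against 25.9% of all genes tested, and above both for 14 (18.9%), against 34.4%. In either direction that is 60.3% of all genes tested. The median log2 difference of the members was -0.029, with 41 below 0 and 33 above, while the median of all genes tested was 0.036 and 44.5% of those were below 0. Averaged per array, the members' log2 level relative to that of all genes tested was 1.18 and 1.20 in the knockdown and 1.31 and 1.27 in the control. This relative level was 0.11 lower in the knockdown, with an SD between replicate arrays of 0.021. It does not change with a constant added to all log2 values of an array, and it moves with the excess of rises among all genes as much as with the members.

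**Figure D3:**
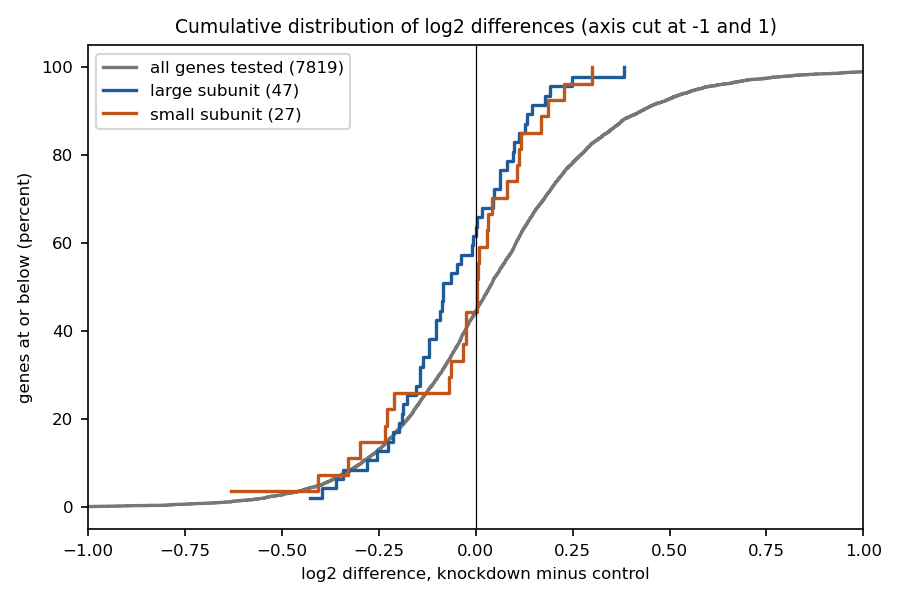
Percentage of genes at or below each log2 difference, for the large subunit, the small subunit and all 7819 genes tested. Above 0 the member curves are steeper than that of all genes and end at 0.38 (large) and 0.30 (small), while 9.36% of all genes tested rose past the threshold.

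The large and small subunits were compared by their own values. By name, 3 of 47 large subunit genes fell (6.38%) and 3 of 27 small subunit genes (11.1%, Mrps36 included), and none rose in either. Over all genes tested, 5.06% fell and 9.36% rose, and 6.17% fell among those in the members' signal range. The median log2 difference was -0.084 for the large subunit, with 29 below 0 and 18 above, and it moved to -0.041 or -0.032 when replicate 1 of the knockdown or of the control was left out. For the small subunit it was 0.0034, with 12 below 0 and 15 above. Per array, the mean log2 level of the large subunit genes minus that of the small subunit genes was 0.298 and 0.23 in the knockdown and 0.28 and 0.281 in the control. The control values lay between the knockdown values, and the groups differed by -0.017, less than the SD between replicate arrays of 0.034. No shift of one subunit against the other was thus seen beyond the spread between arrays. Placed by structure (Mrps30 and Mrps18a in the large subunit, Mrps36 in neither), 3 of 49 large and 2 of 24 small subunit genes fell, with medians of -0.063 and 0.0053, and the groups differed by -0.025 ± 0.036 (SD between replicate arrays). For the subunits by name, without knockdown replicate 2, the difference between the groups changed sign, to 0.017, and the small subunit median was -0.048.

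By origin, 4 of 45 genes with bacterial homologues fell and 1 of 28 genes found only in mitochondrial ribosomes. Their medians were -0.047 and -0.018. Within the large subunit by structure, 20 of 30 genes of bacterial families lay below 0 (median -0.11) and 10 of 19 mitochondria-specific genes (median -0.011). Within the small subunit, 5 of 15 genes of bacterial families lay below 0 (median 0.042) and 5 of 9 mitochondria-specific genes (median -0.025). Over all genes tested, 5.06% fell and 44.5% lay below 0. The difference between the classes was not tested.

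Of the 74 genes, 41 had 1 probe set and 33 had several, and for those the probe set with the highest mean log2 signal was used. Among the 27 with several above the filter, the probe sets differed in sign for 15 and by over 0.3 on the log2 scale for 12. With every probe set tested by itself, 0 of 111 member probe sets rose and 2 fell, where 5.96% of all probe sets tested rose, 3.36% fell and 9.32% passed in either direction. The 2 were that of Mrps36 (adjusted p = 0.00853) and a second one of Mrps9, with signals of 125.6 and 97.6 against 183.1 and 172.3 (log2 difference -0.59, adjusted p = 0.034). The remaining tested probe set of Mrps9 gave -0.12 (adjusted p = 0.653), so its 3 probe sets had the same sign and different sizes. The 3 tested probe sets of Mrpl52 gave -0.36, -0.31 and -0.24. Mrps36, Mrpl55, Mrpl12 and Mrps18c each rest on a single probe set.

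Disagreement was widest for Mrpl57, where the brighter probe set gave -0.084 and a dim one, at 34.6 and 45 against 16.7 and 20.1, gave 0.63 (adjusted p = 0.0573). The probe set of Mrpl1 used here gave -0.397 and another 0.18. For Mrpl51 the bright probe set gave -0.23 and a dim one 0.31. The 6 tested probe sets of Mrpl15 ran from -0.34 to 0.22, and the 3 of Mrpl11 from -0.38 to 0.15. The 2 probe sets of Mrps2, at 0.30 and 0.31, lay close together. With the mean of all probe sets of a gene, those below the filter included, 4 members fell, Mrpl12, Mrpl55, Mrps18c and Mrps36. Each of these has 1 probe set, so the mean leaves its log2 difference as it is by construction. Mrps9 and Mrpl52, the members past the test with several probe sets, lost their calls.

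**Figure D4:**
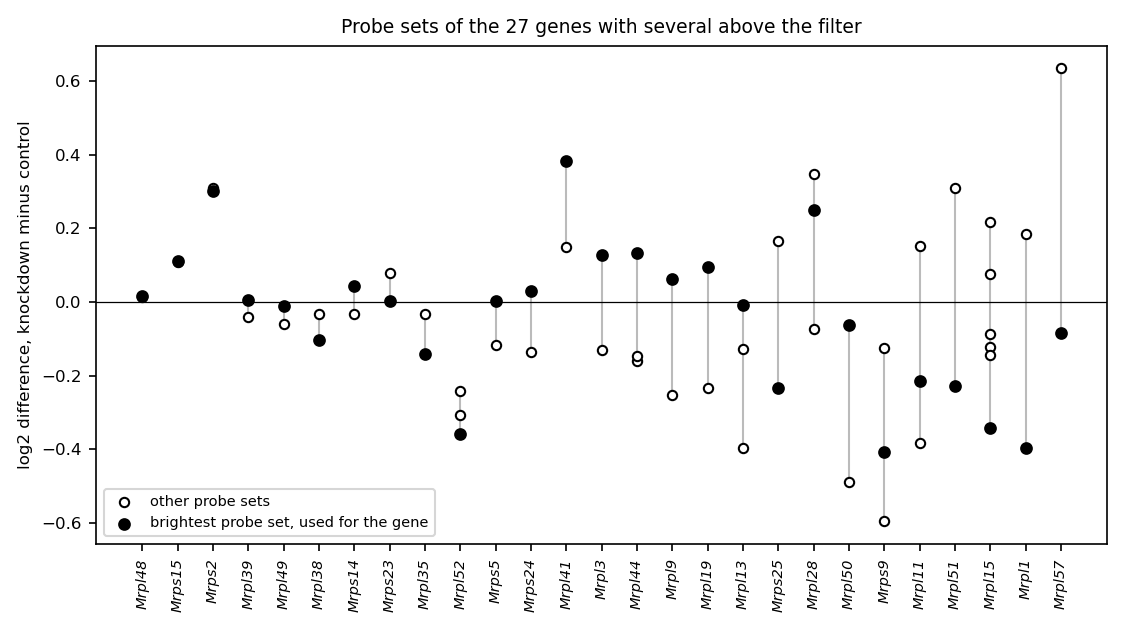
Log2 difference of each probe set above the filter, for the 27 genes with several, ordered by their range from the narrowest (Mrpl48) to the widest (Mrpl57). Filled points are the probe sets used for the gene and open points the others; lines that cross 0 are genes whose probe sets differ in sign, 15 of 27.

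RefSeq windows of 300 bases were matched for 65 of the 74 genes, 71 windows in all, and not for Mrpl13, Mrpl15, Mrpl19, Mrpl38, Mrpl4, Mrpl54, Mrps28, Mrps34 and Mrps35. The ETS letters were in 24 of 71 member windows (33.8%), against 19% of the 8280 windows of tested genes and 8.86% of all 32851 windows, the members included. The YY1 letters were in 15.5% of member windows, against 8.44% and 4.05%, and the NRF1 letters in 11.3%, against 6.96% and 3.58%. The Sp1 letters were in 54.9% against 65.9% and 35.7%, the NF-Y letters in 39.4% against 37.5% and 37.4%, the E-box in 9.86% against 10.6% and 7.15%, and the TATA box in 7.04% against 6.52% and 13.6%. Of the genes with the ETS letters, 2 of 24 fell (median log2 difference -0.04), and of those without, 4 of 41 (median -0.025). Over all genes tested, 5.06% fell and the median was 0.036. The difference between genes with and without the letters was not tested. These matches are descriptions of sequence and not of binding. Among ETS, NRF1 and YY1 factors, Gabpa (log2 difference -0.013, limma, adjusted p = 0.947), Gabpb1 (-0.31, 0.0969), Nrf1 (0.27, 0.1) and Yy1 (-0.017, 0.913) did not pass.

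Members often start head to head with another gene. An annotated start on the opposite strand within 1000 bases upstream was found for 24 of 65 members (36.9%), against 21.3% of the 6388 tested genes with a window. Mrpl46 and Mrps11 start 42 bases apart from each other, and had log2 differences of 0.18 and 0.08, neither past the test. There were 14 distinct pairs with a tested partner, 1 of them Mrpl46 with Mrps11. Of the 13 partners that are not members, 2 rose and 0 fell (over all genes tested, 9.36% rose), with a median difference of 0.08. Mrpl14 did not pass (-0.12, limma, adjusted p = 0.479) while its partner Tmem63b rose by 0.53 (adjusted p = 0.0157). Mrps12 had -0.024 (adjusted p = 0.873) while its partner Sars2, the mitochondrial seryl-tRNA synthetase, rose by 0.40 (adjusted p = 0.0404). Of the 6 genes that fell, Mrps18c had a tested partner, the DNA helicase gene Helq, at -0.18 (adjusted p = 0.634). In none of these 14 pairs did both genes pass the test. Only the pair of Mrps18c with Helq held a member past the test, so the other pairs could not have shown this.

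Other genes of mitochondrial translation were described from lists, beside 9.36% rises and 5.06% falls over all genes tested. Of 4 mitoribosomal proteins with other names (Chchd1, Dap3, Gadd45gip1 and Ptcd3), 0 rose and 0 fell, with log2 differences from -0.19 to 0.10 and a median of 0.0047. Of 20 factors of mitoribosome assembly and rRNA modification, 0 rose and 0 fell. Their median was 0.15 and 13 lay above 0, as did 4339 of all 7819 genes tested. The rRNA methyltransferase gene Nsun4, at 83 and 71 against 106.3 and 119.3, was nearest to the threshold (-0.45, limma, adjusted p = 0.0525). Of those above 0, Noa1 was nearest, at 257.4 and 223.4 against 142.6 and 197.3 (0.47, adjusted p = 0.0629). Of 10 translation factors 0 rose and 0 fell (median 0.041). Tufm, the elongation factor that brings aminoacyl-tRNA, had 326.4 and 448.2 against 262.4 and 319.7 (0.38, adjusted p = 0.118), and Slirp, which stabilises mitochondrial mRNAs, had -0.24 (adjusted p = 0.0877).

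Among 13 genes of mitochondrial tRNA charging, which are aminoacyl-tRNA synthetases and the amidotransferase subunits Gatb, Gatc and Qrsl1, 1 rose and 1 fell (median -0.053). That is 7.69% each way, against 9.36% rises and 5.06% falls over all genes tested. Gars, which charges glycine tRNA in both cytosol and mitochondria, fell from 1768.7 and 1962.8 to 1505.5 and 1356.9 (log2 difference -0.38 ± 0.084, SE; limma, adjusted p = 0.0185). Sars2 rose from 150.4 and 151.7 to 197.2 and 215.2, a call lost with median centring (adjusted p = 0.0543). In both genes the groups did not overlap, as for 60.3% of all genes tested in either direction. Gars lost its call without replicate 2 of the knockdown (adjusted p = 0.0885) or of the control (0.0636), and Sars2 without either of these or control replicate 1 (0.0921 to 0.179).

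Of 14 genes of mitochondrial DNA transcription and RNA processing, 1 rose and 2 fell (median -0.14). These are 7.14% and 14.3% of a short list, against 9.36% rises and 5.06% falls over all genes tested. Trmt10c, a subunit of the mitochondrial RNase P that frees tRNAs from the primary transcript, fell from 213.1 and 220 to 131.6 and 106.3 (-0.77 ± 0.13, SE; limma, adjusted p = 0.00454). Ssbp1, which coats single-stranded mitochondrial DNA, fell from 1073.7 and 1232.2 to 776.6 and 627.6 (-0.70 ± 0.11, adjusted p = 0.00408). Polrmt, the mitochondrial RNA polymerase, rose from 260.1 and 323.6 to 426.7 and 451.1 (0.56 ± 0.12, adjusted p = 0.0121), in the direction opposite to its binding partner Mrpl12. Trmt10c and Ssbp1 lost their calls with the spike-in scaling (adjusted p = 0.127 and 0.15). Of 9 regulators of nuclear genes for mitochondria, 1 rose and 0 fell, and the rise was that of Myc (0.68, adjusted p = 0.00229).

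The cytosolic ribosomal proteins, encoded by a separate gene family, were listed by symbol. The list had 1 rise and 6 falls among 46 tested genes (2.17% and 13%), with a median of -0.066. Its largest fall was that of Rpl22, from 1533 and 1716.9 to 1151.8 and 805.3 (log2 difference -0.74, limma, adjusted p = 0.00928). The rise was that of Rpl7l1 (0.32, adjusted p = 0.0253), which is named as a gene like Rpl7. Its symbol alone does not make it a protein of the cytosolic ribosome. The same holds for Rpl22l1, named as a gene like Rpl22, which was among the 6 falls (-0.26, limma, adjusted p = 0.0419). Over all genes tested, 9.36% rose and 5.06% fell, so this list had a lower share of rises and a higher share of falls. These shares are not matched for signal. The list's median signal was 4526.6 and its median SE 0.067, against 198.8 and 0.12 over all genes tested. The difference between the 2 ribosomal families was not tested.

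**Figure D5:**
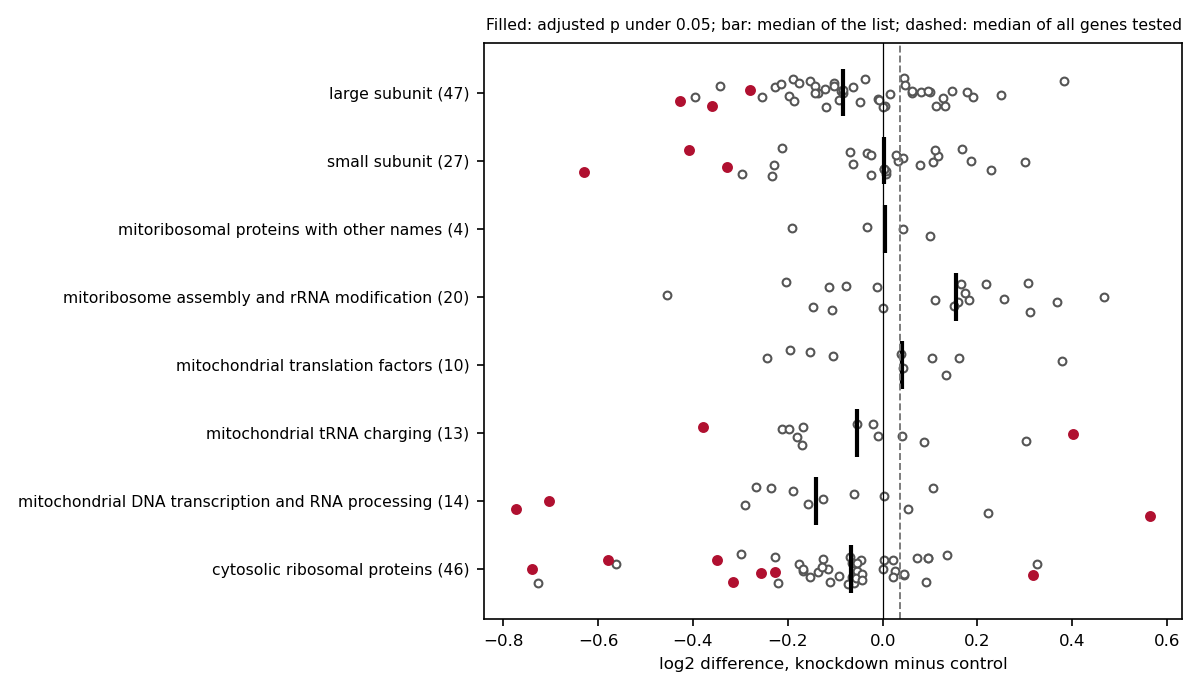
Log2 difference of each tested gene of the large and small subunit, of 5 lists of mitochondrial translation and expression, and of the cytosolic ribosomal proteins. Filled points passed the test, bars are list medians and the dashed line is the median of all genes tested; filled points lie on both sides of 0 in the tRNA charging, transcription and cytosolic lists, and below 0 in both subunits.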

How the data were processed

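The authors deposited linear intensity values for each probe set, made with GCOS, software for Affymetrix arrays, per the submitters' processing notes. Its version, algorithm and target for scaling were not given in the sources used here. Genes came from the platform annotation, with symbols updated by Entrez ID through RefSeq (GRCm38.p6; 20351 of 20380 probe sets with 1 gene matched). Probe sets with several genes (691), none (1555) and controls (64) were left out. Signals were analysed as log2(signal + 20), which understates the change of dim genes. Per gene, the probe set with the highest mean was used (those ending in _x_at only where no other existed), and genes below the 40th percentile of mean signal were not tested. Knockdown and control were compared over all genes with limma (version 3.58.1, R 4.3.3), using lmFit, eBayes with an intensity trend, two-sided tests and Benjamini-Hochberg adjustment over all 7819 genes. The model was tested on simulated data. Named were the shRNA targets, members past the test, the 6 with the smallest p in a direction with fewer, signal extremes, members whose probe sets disagreed, the Mrps18 paralogs, Mrps36, Mrps30, Mrpl12 and up to 4 called genes per list. Members and lists were chosen with earlier results of these data known. With 2 arrays a group, their number limits the precision.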

Additional observations from a re-analysis of the deposited data

How the results depend on the processing

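With the pseudocount changed, with the 60th percentile filter and with quantile normalization, 5 or 6 members fell. The count of falls was 1 with no filter, 10 with median centring, 0 with the spike-in scaling, 1 without the intensity trend and 2 with every probe set by itself. Rises were 1 with log2(signal + 40), 2 with the 60th percentile filter and 3 with the spike-ins. Leaving out arrays gave 2 to 4 falls and 0 to 2 rises. Over all genes, 433 changed with no filter (324 higher, 109 lower), 1449 were higher and 22 lower with the spike-ins, 595 lower with median centring and 218 lower without the trend. Leaving out arrays gave 602 to 1178 changed, 423 to 747 higher and 179 to 431 lower.

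The replicate numbers are only shared numbers: deviations of same-numbered arrays correlated at -0.13 over all genes tested. With the replicate block, 4 members fell (Mrpl12 and Mrps18c lost their calls) and 1 rose (Mrpl41), and 1182 genes changed in all. With a crossed block, chosen after seeing the data, 9 members fell and 2 rose, and 1468 genes changed.

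Members' medians were -0.079 with median centring and 0.28 with the spike-ins, and -0.060 to -0.014 with arrays left out. For the large subunit they were -0.13 and 0.23, -0.058 with the mean of probe sets, -0.063 by structure, and -0.082 to -0.032 with arrays left out. For the small subunit they were -0.047 and 0.31, and -0.048 to 0.013 with arrays left out.

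Of all 74 members, 41 lay below 0 with the deposited scale, 53 with median centring and 7 with the spike-ins. Among the members named by the rule, these changed sign, with log2 differences as given. With the spike-ins: Mrpl12 0.031, Mrpl33 0.19, Mrpl11 0.096, Mrpl13 0.30, Mrpl50 0.25, Mrpl51 0.083, Mrpl57 0.23, Mrps25 0.077 and Mrps30 0.25. With the mean of all probe sets, those below the filter included: Mrpl1 0.015, Mrpl19 -0.018, Mrpl39 -0.018, Mrpl44 -0.058, Mrpl51 0.055, Mrpl57 0.28, Mrpl9 -0.095, Mrps24 -0.053, Mrps25 0.026 and Mrps5 -0.057. With quantile normalization: Mrpl13 0.011 and Mrps5 -0.028. With median centring: Mrpl39 -0.045, Mrps14 -0.0081, Mrps24 -0.021 and Mrps5 -0.047. Over the 4 arrays left out in turn: Mrpl42 -0.036 to 0.20, Mrpl33 -0.34 to 0.099, Mrpl13 -0.052 to 0.036, Mrpl19 -0.016 to 0.21, Mrpl39 -0.032 to 0.041, Mrpl50 -0.17 to 0.042, Mrpl9 -0.0099 to 0.14, Mrps24 -0.041 to 0.099, Mrps5 -0.14 to 0.15 and Mrps30 -0.13 to 0.0030. The cause of these changes was not tested.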
